A study of Mus musculus with 6 samples.

Results

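Potassium channel genes were examined in LβT2 cells. This mouse line comes from a pituitary tumour of transgenic mice and serves as a model of gonadotropes, the excitable cells that secrete luteinizing hormone and follicle-stimulating hormone. The members are all array probes whose annotated gene symbol begins with Kcn, leaving out the non-coding RNA gene Kcnq1ot1. They number 171 of the 45281 probes and 87 of the 19057 genes with a probe of a single symbol. The cells, labelled with the strain CB6F1/J, were transfected with an siRNA labelled Gas or with a scrambled control siRNA. RNA was taken after 48 h from 3 samples per group, and each was profiled on its own Illumina MouseWG-6 array. All 6 samples are of this 1 tumour-derived line, and the labels give no siRNA sequence. Whether the 3 samples of a group were separate cultures is not stated, so the p-values rest on a spread between samples that may be only technical.

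Potassium channels set the resting potential of excitable cells and end their action potentials. A channel is built from pore-forming alpha subunits, which assemble as tetramers in the voltage-gated, calcium-activated and inward rectifier classes and as dimers in the tandem-pore class, and from auxiliary subunits that alter gating or trafficking. The silent voltage-gated (Kv) alpha subunits of the Kcnf, Kcng, Kcns and Kcnv families form no channel alone and act only when joined to pore-forming Kv subunits of another class. In gonadotropes, gonadotropin-releasing hormone and intracellular calcium act on membrane potential partly through calcium-activated potassium channels.

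The target of the siRNA was checked first. The siRNA name was taken to mean Gs alpha, which activates adenylyl cyclase and is encoded by Gnas. Normalized log2 intensity of the brightest Gnas probe was 8.84, 8.96 and 8.93 with Gas siRNA and 11.81, 11.76 and 11.87 with scrambled siRNA. The groups lay far apart (log2 change -2.91, SE 0.0867, adjusted p = 6.03e-20 in limma). With its 7 measured probes averaged the log2 change was -1.12 (adjusted p = 4.06e-04). Across probes, pairs of arrays correlated at 0.9907 to 0.9911 within groups and at 0.9888 to 0.9905 between groups, and no array stood apart. Of 8 gonadotrope marker genes, 7 had a probe and 6 were above background on enough arrays to be tested, among them Cga, Lhb and Gnrhr, while Fshb was above background on 0 arrays. None of the 6 passed the test, with adjusted p from 0.294 to 0.964. Of the other pituitary markers, Prl, Pomc, Tshb and S100b were above background on 0 of 6 arrays. The Gh probe was above background on 3 Gas siRNA and 3 scrambled siRNA arrays. Its difference between the groups did not pass the test (5.34 ± 0.33 with Gas siRNA and 5.79 ± 0.46 with scrambled siRNA, SD, n = 3 each). Of 3 glia or fibroblast markers 2 were measured. Pdgfra was above background on 3 Gas siRNA and 3 scrambled siRNA arrays, Gfap on 2 and 3, and Col1a1 on 0 and 0. Neither Pdgfra nor Gfap passed the test (limma adjusted p = 0.761 and 0.765).

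Which channel genes could be measured was asked before the groups were compared. A probe was called above background when its deposited intensity exceeded the 95th percentile of the background estimated on its own array, and it was tested when this held on at least 3 of the 6 arrays. By this rule 52 of the 87 Kcn genes were measured, or 59.8%, against 60.8% of all genes. On all 6 arrays a probe lay above background for 30 Kcn genes (34.5%), against 51.5% of all genes, so 22 of the measured members were detected on only 3 to 5 arrays. A gene was counted by its best probe, and its other probes could disagree. Of the Kcna6 probes 1 of 4 was measured, and of the Kcnj15 probes 1 of 5. For 24 genes no probe lay above background on any array. A gene that did not pass is one whose signal was not well above background here, and its transcript is not shown to be absent. Nor is a gene shown to be expressed when its signal lay only just above the bound, an intensity of 142 to 143. Over the 6 arrays Kcnq3 had deposited intensities of 150.5 to 168.8, and Kcna3 of 145 to 160.8. The brightness of different probes cannot be compared, so no order of levels between genes is given.

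**Figure D1:**
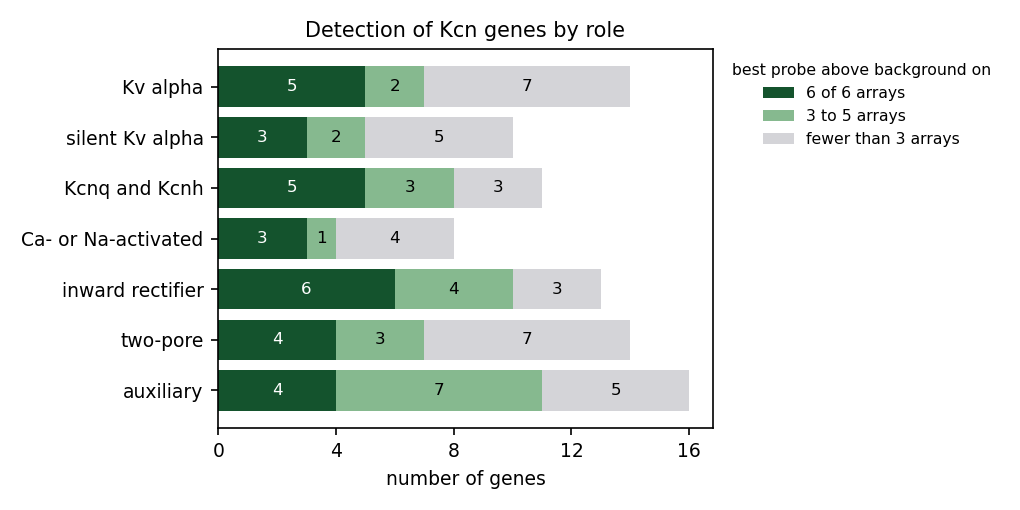
Number of Kcn genes by role group (rows) whose best probe lay above background on 6 of 6 arrays, on 3 to 5 arrays, or on fewer than 3. In the inward rectifier group 6 of 13 genes were detected on every array, and in the auxiliary group 4 of 16; the antisense transcript Kcnmb4os1 is not drawn.

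Among the pore-forming Kv genes of the Shaker, Shaw and Shal classes, 7 of 14 were measured. Kcnc1 and Kcnc4, Shaw-type subunits of fast repolarizing currents, Kcnd2, the Shal-type subunit of transient A-type current, and the Shaker-type genes Kcna3 and Kcna6 were above background on all 6 arrays. Kcna10 and Kcnd3 were above it on 4 arrays. Kcna1, Kcna2, Kcna4, Kcna5, Kcna7, Kcnc2 and Kcnd1 did not pass.

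In the Kcnq and Kcnh group 8 of 11 genes were measured. Kcnh2, which encodes the ether-a-go-go-related channel of delayed repolarization, its relative Kcnh7, the ether-a-go-go gene Kcnh1, Kcnh3, and Kcnq3, a subunit of the M-current, were detected on all 6 arrays. Kcnh5, Kcnh8 and Kcnq5 did not pass. Of the calcium- and sodium-activated channels, the large-conductance (BK) gene Kcnma1, the small-conductance gene Kcnn1 and the sodium-activated Kcnt1 were detected on all 6 arrays and Kcnn2 on 3. Kcnn3, Kcnn4 and Kcnt2 did not pass, nor did Kcnu1, which was placed in this group by its symbol and not by what opens its channel.

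The inward rectifiers had 10 of 13 genes measured. Detected on all 6 arrays were the strong rectifiers Kcnj2 and Kcnj4, Kcnj3 and Kcnj6, whose channels are opened by G protein beta-gamma subunits, and Kcnj15 and Kcnj16. Kcnj11, the pore of the ATP-sensitive channel, was above background on 3 Gas siRNA arrays and 1 scrambled siRNA array. In the tandem-pore class, which carries background current, 7 of 14 genes were measured, and Kcnk1, Kcnk3, Kcnk10 and Kcnk12 were detected on all 6 arrays. Of 16 genes grouped as auxiliary by their symbols, Kcnrg included, 11 were measured. Kcnab2 and Kcnab3, beta subunits of Shaker-type channels, Kcnip3, a calcium-binding partner of Shal channels, and Kcnmb4, a BK beta subunit, were detected on all 6 arrays.

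Silent Kv subunits were then compared between the groups. Kcnv2, a modulatory subunit best known from photoreceptors, fell 2.68-fold with Gas siRNA. On the normalized log2 scale it had 7.66, 7.85 and 7.52 with Gas siRNA and 9.16, 9.15 and 9.00 with scrambled siRNA. Every Gas siRNA array lay below every scrambled siRNA array, and the gap between the groups exceeded the spread within either. The group means were 7.68 ± 0.168 and 9.10 ± 0.090 (SD, n = 3 each), a log2 change of -1.42 (SE 0.122, 95% interval -1.67 to -1.17, limma adjusted p = 1.09e-08). On the scale of the deposited intensity, with background still included, the values were 313.3, 342.6 and 294.8 with Gas siRNA, against 682.5, 678.2 and 621.9 with scrambled siRNA. By p-value Kcnv2 ranked 4 among the 11587 genes tested. In RNA of whole cultures, fewer cells with the transcript and less transcript per cell cannot be told apart, and Kcnv2 had 1 probe on the array, so the change has no second probe beside it.

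Of the other 9 silent subunit genes, 4 were measured and none of them passed. Kcng4, which modulates other Kv channels, had 10.56, 10.24 and 10.24 with Gas siRNA and 10.26, 10.32 and 10.30 with scrambled siRNA on its brightest probe. The groups overlapped, and Gas siRNA replicate 1 was the highest array, as it also was on a second Kcng4 probe (10.08, 9.55 and 9.53 with Gas siRNA, 9.78, 9.80 and 9.80 with scrambled siRNA). The log2 change of Kcng4 was 0.056 (95% interval -0.137 to 0.250, adjusted p = 0.905), and its 2 other measured probes gave -0.073 and -0.21.

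Kcns1, a silent subunit known from sensory neurons, had 5.68, 5.77 and 5.44 with Gas siRNA, against 5.91, 5.96 and 5.56 with scrambled siRNA (log2 change -0.18, adjusted p = 0.858). Kcns2 had 6.02, 5.44 and 5.52 with Gas siRNA, against 5.54, 4.69 and 5.42 with scrambled siRNA (0.45, adjusted p = 0.575). Kcnf1, near background, had 4.96, 5.14 and 4.61 with Gas siRNA, against 4.97, 5.06 and 5.09 with scrambled siRNA (-0.13, adjusted p = 0.915). In all 3 of these genes the groups overlapped, and the 95% intervals ran from -0.605 to 0.249, -0.053 to 0.944 and -0.624 to 0.360 in that order. The Kcns2 difference was 0.184 without scrambled siRNA replicate 2, its lowest array, and 0.132 with no normexp. Kcng1, Kcng2, Kcng3, Kcns3 and Kcnv1 were not above background on any array.

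**Figure D2:**
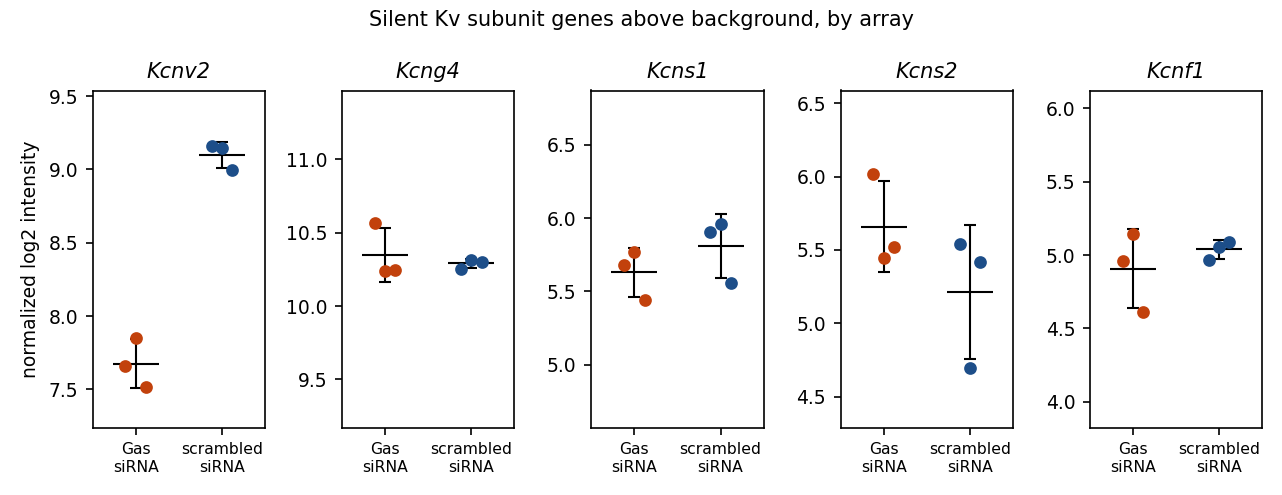
Normalized log2 intensity (vertical axis, each panel spanning the same number of log2 units) of the 5 measured silent Kv subunit genes, with a point per array, the mean as a bar and the SD as a whisker (n = 3 per group). The groups are apart for Kcnv2 (7.68 with Gas siRNA and 9.10 with scrambled siRNA) and overlap for Kcng4, Kcns1, Kcns2 and Kcnf1.

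Across the family, 1 of the 52 measured Kcn genes passed the test, Kcnv2, and it was lower with Gas siRNA. That is 1.92% of the measured members, against 1.66% of all 11587 genes tested (0.949% lower and 0.708% higher). With 1 call among 52, these shares cannot be told apart or called alike. The other 51 did not pass. At an unadjusted p under 0.05 there were 3 Kcn genes (5.77%), against 11.3% of all genes. The groups of arrays did not overlap for 2 Kcn genes (3.85%), Kcnv2 and Kcnh6, against 16% of all genes. The median log2 change of the measured members was 0.065, with 32 positive and 20 negative, beside a median of 0.000 over all genes. Positive changes made up 61.5% of these members, against 49.9% of all genes. When all 6 arrays had to lie above the bound, the median of the members was 0.045. A shared shift of the family was not tested. The median absolute change was 0.134, beside 0.113 over all genes. The widest differences that did not pass were 0.48 for Kcnj4, 0.45 for Kcns2 and 0.38 for Kcnk5. Kcnk5 was above background on 3 Gas siRNA arrays and only 1 scrambled siRNA array, and Kcns2 on 3 and 2.

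Precision differed with detection. For the 29 genes detected on all 6 arrays that did not pass, all 95% intervals lay inside a log2 change of 1 in either direction, and 16 lay inside 0.5. For the 22 genes detected on 3 to 5 arrays, all intervals lay inside 1 and 0 inside 0.5. These intervals do not bound a fall near background, because the normalized scale has a floor. An offset of 16 was added before log2, so a 2-fold fall in a weak signal moves this scale by less than 1 unit. That holds also for dim genes detected on all 6 arrays, such as Kcnq3 (scrambled siRNA mean 5.33). The lowest normalized log2 value of any probe was 4.18, and in 16 of these 22 genes the scrambled siRNA mean lay less than 1 log2 unit above it. A fall of 1 unit on this scale from those 16 means would have ended below every value on the arrays.

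**Figure D3:**
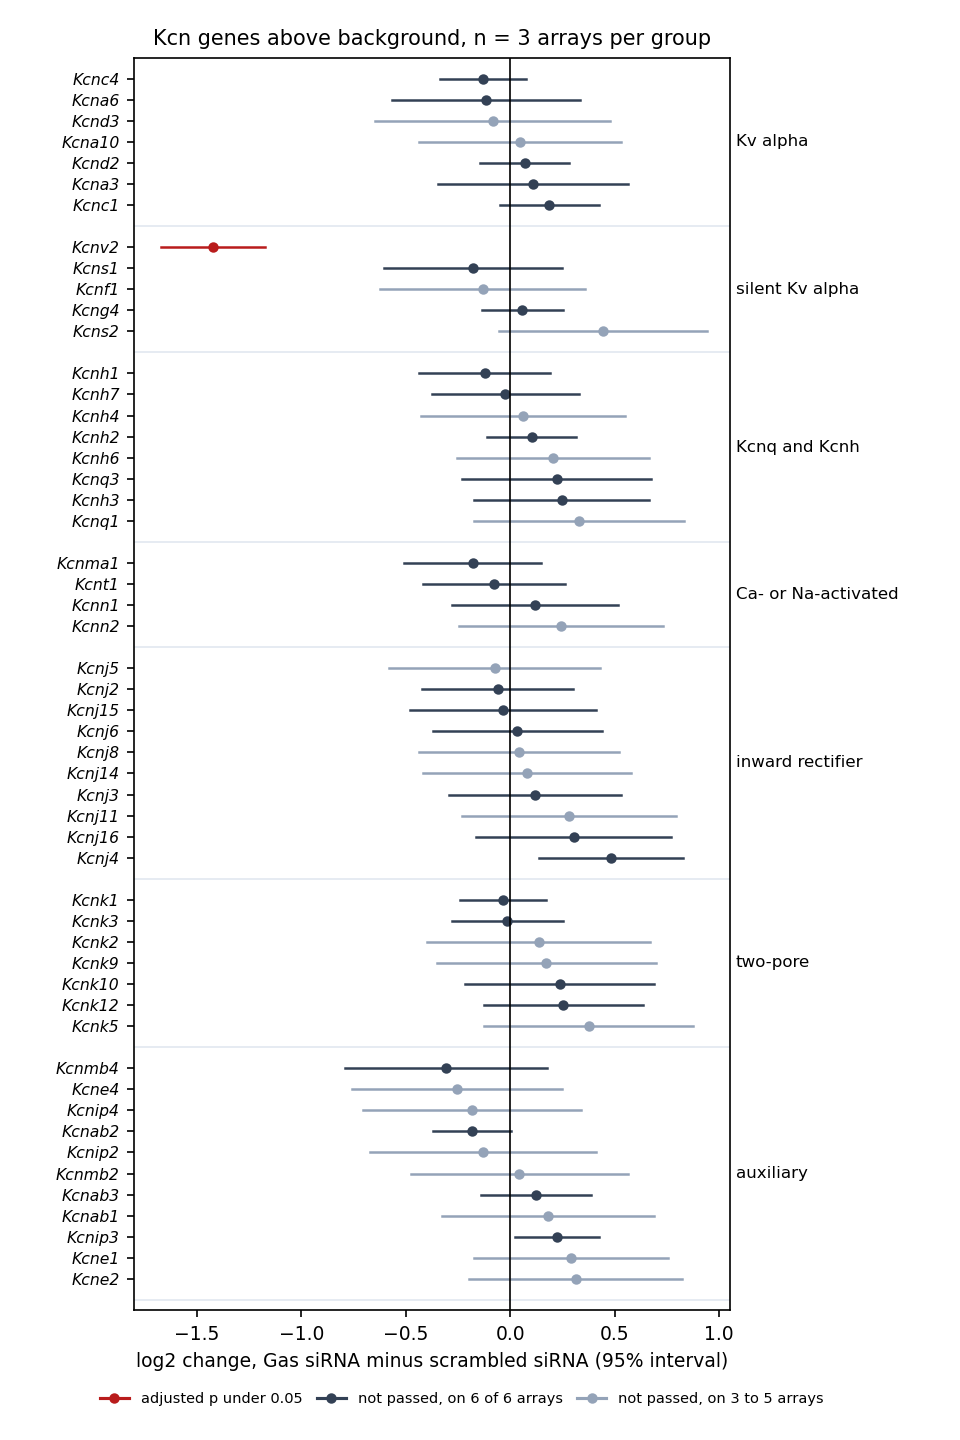
Log2 change, Gas siRNA minus scrambled siRNA (horizontal axis, with 95% intervals from the limma fit), for the 52 measured Kcn genes in rows grouped by role, with shades for the test and for the number of arrays above background. Kcnv2 stands at -1.42, and the other 51 lie between -0.31 for Kcnmb4 and 0.48 for Kcnj4.

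Kcnj4 and Kcnip3 had an unadjusted p under 0.05 and did not pass after adjustment. Kcnj4, a strong inward rectifier, had 7.47, 7.11 and 7.59 with Gas siRNA and 6.92, 6.62 and 7.19 with scrambled siRNA. The groups overlapped by 1 array on each side, and the log2 change was 0.48 (SE 0.169, limma adjusted p = 0.227). Kcnip3, which binds Shal channels and is also known as a calcium-dependent transcriptional repressor, had 9.66, 9.89 and 9.82 with Gas siRNA and 9.48, 9.55 and 9.67 with scrambled siRNA. Its groups overlapped narrowly, and the log2 change was 0.22 (SE 0.0985, 95% interval 0.023 to 0.426, adjusted p = 0.421).

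Of the repolarizing Kv channels detected on all arrays, none passed. Kcnc4 had 9.23, 9.33 and 9.16 with Gas siRNA and 9.31, 9.42 and 9.39 with scrambled siRNA (log2 change -0.13, 95% interval -0.339 to 0.073). Kcnc1 had 8.69, 8.89 and 8.99 with Gas siRNA and 8.51, 8.74 and 8.76 with scrambled siRNA (0.19, -0.051 to 0.425). In both the arrays of the groups overlapped. Kcnd2 had 9.79 ± 0.133 with Gas siRNA and 9.72 ± 0.172 with scrambled siRNA (0.068, -0.143 to 0.279), and its second probe gave -0.24 (adjusted p = 0.700).

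Kcnh2 was measured by 2 probes with differences of opposite sign, 0.10 (SE 0.104) and -0.12 (SE 0.110), neither of which passed. For all 12 Kcn genes with more than 1 measured probe no probe passed, and the sign was the same across probes in 6. Kcnk1, a weakly rectifying tandem-pore channel, had 9.49 ± 0.135 with Gas siRNA and 9.53 ± 0.084 with scrambled siRNA (log2 change -0.035, 95% interval -0.242 to 0.172). Kcnk3, the acid-sensitive background channel, had 8.28 ± 0.212 with Gas siRNA and 8.29 ± 0.149 with scrambled siRNA (-0.014, -0.280 to 0.252). Within-group spread was wider than the difference for both.

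The G protein-gated and ATP-sensitive inward rectifiers were read next. Kcnj3 had 6.37, 6.50 and 6.25 with Gas siRNA and 5.82, 6.26 and 6.68 with scrambled siRNA (log2 change 0.12, 95% interval -0.293 to 0.530). Kcnj6 had 6.00 ± 0.159 with Gas siRNA and 5.97 ± 0.217 with scrambled siRNA (0.033, -0.372 to 0.439). Kcnj11 had 5.33 ± 0.289 with Gas siRNA and 5.05 ± 0.444 with scrambled siRNA (0.28, -0.233 to 0.793). In each the scrambled siRNA arrays were the more scattered, and none passed (adjusted p = 0.906, 0.974 and 0.792, in limma).

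BK channel genes were set beside their auxiliary subunits. Kcnma1, the pore, had 7.46, 7.38 and 7.22 with Gas siRNA and 7.81, 7.66 and 7.15 with scrambled siRNA on its brightest probe. The groups overlapped through scrambled siRNA replicate 3, the lowest of all 6 arrays, and the log2 change was -0.18 (SE 0.159, adjusted p = 0.791). It was -0.375 without that array and -0.046 without scrambled siRNA replicate 1. The other 2 measured Kcnma1 probes gave -0.090 and -0.20 and did not pass. Kcnmb4, a beta subunit of neuronal BK channels, had 5.31 ± 0.109 with Gas siRNA and 5.61 ± 0.473 with scrambled siRNA (-0.31, adjusted p = 0.747). That difference was -0.084 without scrambled siRNA replicate 2 and -0.555 without scrambled siRNA replicate 3. The small-conductance gene Kcnn1 had 6.25 ± 0.123 with Gas siRNA and 6.13 ± 0.306 with scrambled siRNA (0.12, adjusted p = 0.902). Kcnab2, a beta subunit gene of Shaker-type channels, had 10.71, 10.86 and 10.63 with Gas siRNA and 10.89, 11.10 and 10.77 with scrambled siRNA (-0.18, adjusted p = 0.516), with overlapping groups.

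Partner genes of potassium channels that carry no Kcn symbol were read as a list of 17 genes. Of these, 16 had a probe, 12 were measured, 1 fell, 0 rose and 11 did not pass, with a median log2 change of -0.132 against 0.000 over all genes. Of all 11587 genes, 0.949% fell and 0.708% rose, and 1 call among 12 is too few to set against those shares. The differences of the 12 were positive in 5 and negative in 7. The gene that fell was Lrrc38, a leucine-rich repeat protein that acts as a gamma subunit of BK channels. It had normalized log2 intensities of 9.19, 9.04 and 9.37 with Gas siRNA and 9.81, 9.77 and 9.93 with scrambled siRNA. All Gas siRNA arrays lay below all scrambled siRNA arrays, and the fall was 1.56-fold (-0.64 on the log2 scale, SE 0.103, 95% interval -0.853 to -0.431, limma adjusted p = 5.13e-04). This call was lost when the variance was not modelled along intensity (adjusted p = 0.215, at the same log2 change).

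Amigo1, an auxiliary subunit of Kv channels, had 6.63, 6.59 and 6.67 with Gas siRNA and 7.19, 7.09 and 7.05 with scrambled siRNA. The arrays of the groups were apart, yet the log2 change of -0.48 (SE 0.157) did not pass over all genes in limma (adjusted p = 0.184), and its second probe gave 0.13 (adjusted p = 0.918). Dpp6, an auxiliary subunit of Shal channels, had 8.45, 8.32 and 8.39 with Gas siRNA and 8.58, 8.70 and 8.61 with scrambled siRNA. These groups too did not overlap, with a log2 change of -0.24 (SE 0.114, adjusted p = 0.486), and its other 3 measured probes gave 0.041, -0.084 and 0.0069. Dpp10, of the same kind, and Abcc8, the sulphonylurea receptor that partners Kcnj11, had -0.15 and -0.15 and did not pass (adjusted p = 0.609 and 0.860). The widest positive differences among the partners were 0.29 for Vapa, which encodes a membrane protein of the endoplasmic reticulum (adjusted p = 0.526), and 0.23 for Cntnap2, which clusters Kv channels along axons (adjusted p = 0.506). Neither passed, and a second measured Cntnap2 probe gave -0.11. Abcc9, Lrrc26, Lrrc55 and Rest were not measured.

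**Figure D4:**
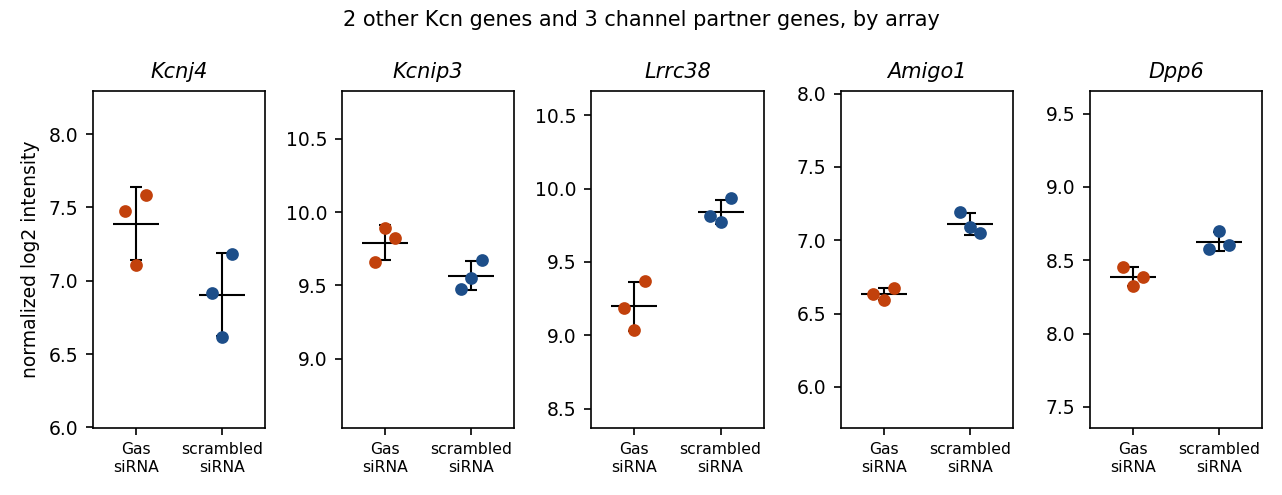
Normalized log2 intensity (vertical axis, each panel spanning the same number of log2 units) of Kcnj4, Kcnip3, Lrrc38, Amigo1 and Dpp6, with a point per array, the mean as a bar and the SD as a whisker (n = 3 per group). Lrrc38 passed the test (9.20 with Gas siRNA and 9.84 with scrambled siRNA), and the other 4 did not.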

How the data were processed

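Biotin-labelled RNA of 6 samples, 3 per group, was read on BeadChips, per the labels. The deposited intensity values, linear and not log-transformed, came from the authors' BeadStudio, per the submitters' processing notes, and how they were normalized is not given in the sources used. Sorted columns agreed within 1.67% below the 10 brightest probes, as after quantile normalization. A second table of 24 columns, whose names match no sample's labels, was not used, so a background bound took the place of detection p-values.

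Background came from each array's own values (mode 127, bound 142 to 143). Normexp (offset 16), quantile normalization and log2 followed. The 21895 probes above the bound on at least 3 arrays were fitted with limma 3.58.1 in R 4.3.3 (lmFit and eBayes with intensity trend, 2-sided), and p-values were adjusted over all of them by Benjamini-Hochberg, with a threshold of 0.05. A gene was represented by its measured probe with the highest mean. The number of arrays limits the precision. The fit was tested on simulated data. The labels state no pairing, so the replicate numbers were not taken as pairs. Deviations of same-numbered arrays from their group means correlated at 0.016, 0.059 and 0.094. For differently numbered arrays of the 2 groups these correlations ran from -0.079 to 0.022. A fit with the replicate number as a block is given among the alternatives at the end.

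Symbols came from the platform annotation, and all 171 Kcn probes matched a RefSeq gene number of GRCm38.p6, with 0 symbols differing. Values on every array were given for measured silent subunits and for genes that passed or had an unadjusted p under 0.05, and values of other members were added by role after they were seen. Genes named in the design without a value in the text are not reported here. The members and lists were chosen with earlier results of these data known.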

Additional observations from a re-analysis of the deposited data

How the results depend on the processing

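Kcnv2 was the 1 Kcn gene that passed under each of the 15 alternatives, also with no intensity trend (adjusted p = 0.0168, the highest), where 5 genes passed in all, against 192 in the reported fit. Its log2 change ran from -1.512 to -1.345 without each array in turn and was -1.06 with no normexp. With the replicate block it was -1.42 (adjusted p = 1.06e-10), and the block changed the call of no other Kcn gene and of neither Gnas nor Lrrc38. The Gnas change was -1.12 with its 7 measured probes averaged. The count of genes passing was 288 with the replicate block, 116 with probes averaged, 118 and 114 without Gas siRNA replicates 2 and 3, and 125 and 102 without scrambled siRNA replicates 2 and 3. Measured Kcn genes numbered 52 as reported, 30 when all 6 arrays had to lie above the bound, 38 and 55 with the bound at the 99th and 90th percentile, and 44 to 49 without 1 array. Differences that did not pass changed sign for Kcnf1 (0.014 without Gas siRNA replicate 3, within a range from -0.167 to 0.014 without 1 array) and for Kcng4 (-0.075 with probes averaged, and -0.052 without Gas siRNA replicate 1, within a range from -0.052 to 0.112); the cause was not tested. Lrrc38 passed in 14 of 15 alternatives. Kcnj4, Kcnip3, Kcns1 and Kcns2 passed in no alternative. Their lowest adjusted p was 0.0835 in limma, for Kcnj4 with the replicate block. Of the 45 measured Kcn genes besides those and Kcnv2, Kcnf1 and Kcng4, 0 passed in any alternative in which they were fitted. Among these 45 the lowest adjusted p was 0.314 (limma, Kcnab2 with the replicate block), and 25 changed sign in at least 1 alternative. Genes near background limit what could be seen: 22 of 52 were above it on only 3 to 5 arrays.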
